A study of Mus musculus with 8 samples.

Results

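The genes described here are 62 abundant genes whose RNA levels were lower in mouse myeloid progenitors infected with a Trim27 virus than in those infected with a GFP control virus. They were chosen from 33435 genes by their CPM, which is the count of a gene divided by all gene counts of its library and scaled to 1000000 counts. A gene entered when its mean over the 8 libraries reached 100 CPM, its Trim27 mean was at most 0.5 times its GFP mean, and its highest Trim27 library lay below its lowest GFP library. Of the 1797 genes with a mean of at least 100 CPM, 68 (3.78%) met these conditions, and 6 of them were left out because their symbols start with the prefixes of ribosomal protein or complex I genes: Ndufa12, Ndufv3, Rpl36, Rpl37a, Rpl38 and Rps16-ps2. The contrast between the 2 viruses therefore chose the genes, and their levels and ratios are given as a description with no test.

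Mice of both groups were of the C57BL/6J strain. Hematopoietic stem and progenitor cells (HSPCs) came from E14.5 fetal livers (embryos of that day of gestation) and received either the Trim27 virus, for overexpression of Trim27, or the GFP control virus, an empty vector. Myeloid progenitors (MPs) were then sorted from the infected cells, and polyA RNA was sequenced from 4 GFP and 4 Trim27 samples. The labels number the samples but do not say whether they came from separate embryos, litters or infections, so the spread between them may be technical. Trim27 encodes a RING-type E3 ubiquitin ligase of the tripartite motif family.

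Myeloid progenitors give rise to granulocytes, monocytes and related cells, and they divide fast. Such cells carry high levels of RNA for ribosomes, mitochondrial respiration, protein turnover and secretion. The respiratory chain passes electrons through complexes III and IV to oxygen, and complex V, the ATP synthase, uses the resulting proton gradient. Iron-sulfur clusters, the cofactors of many of these and other enzymes, are assembled in mitochondria, and BolA-family proteins help to pass them on.

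Trim27 itself was counted at 170, 165, 160 and 155 CPM with GFP and at 301, 339, 323 and 336 CPM with Trim27 virus. The groups did not overlap, and the mean rose from 162 ± 6.53 to 325 ± 17.4 CPM (SD, n = 4 each), a ratio of 2.0. With edgeR's quasi-likelihood test and TMM scaling, which corrects library sizes for a few dominant genes, the log2 fold change was 0.70 (SE 0.05, Benjamini-Hochberg adjusted p = 7.38e-13). After each library's trend on transcript length was removed, it was 0.12 with an edgeR adjusted p of 0.053. The libraries held 9257889 to 10747794 gene counts in the GFP group and 10551137 to 16366571 in the Trim27 group. Genes with the left-out prefixes took 30.53% to 30.68% of the counts of GFP libraries but 21.41% to 22.3% of those of Trim27 libraries, which lowers the raw CPM of all other genes in the GFP group. Counts of Trim27 replicate 1 differed more from those of its group (chi-square of 6.67 to 11 per degree of freedom) than the other Trim27 libraries did among themselves (2.64 to 3.59). Without that library the rule gave 66 genes, of which 59 were among the 62.

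The 12 progenitor markers summed to 1480 to 1560 CPM with GFP and 1330 to 1470 CPM with Trim27. Flt3 was the only marker of these at 0 in all 8 libraries, and Cd33 was at 0 with GFP and at 0.948 to 1.83 CPM with Trim27. Of the 11 tested, 8 fell and 2 rose in edgeR, beside 38% lower and 47.5% higher among all genes tested. These counts depend on the TMM scale, since raw CPM of Mpo, Ctsg and Elane overlapped between the groups. Mpo had 477 to 525 CPM with GFP and 494 to 561 CPM with Trim27. Cd34 went from between 52.4 and 60.6 to between 30.9 and 35.5 CPM, and Spi1 from between 58.6 and 65.4 to between 127 and 137 CPM. Of 11 hepatocyte markers, 7 were also at 0, albumin (Alb) among them, and the list summed to 1.08 to 1.53 CPM with GFP and 16.9 to 19.3 CPM with Trim27. Stromal and endothelial markers, 6 of 10 at 0, summed to 38.8 to 46.2 CPM with GFP and 8.42 to 9.67 CPM with Trim27. Most of that sum was Pdgfrb (37.3 to 44.1 and 5.59 to 6.9 CPM), while Col1a2 went from 0 to between 1.64 and 3.32 CPM. Macrophage markers, 6 of 8 at 0, summed to at most 0.864 CPM with GFP and to 10.6 to 13.3 CPM with Trim27, all of it Emr1. B-lineage markers summed to 62.9 to 152 CPM with GFP and 51.6 to 68.7 CPM with Trim27. The part of these other cells in the levels of the 62 genes was not tested. In bulk samples such as these, fewer cells of a type and less RNA per cell cannot be told apart.

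Together the 62 genes took 1.97% ± 0.0451 of all counts in the GFP libraries and 0.811% ± 0.0259 in the Trim27 libraries (SD, n = 4 each). Their ratios of Trim27 to GFP mean ran from 0.227 for Gm23935 to 0.498 for Bscl2, with a median of 0.43. The median over the 1797 abundant genes was 1.02. Only Gm23935 had a ratio under 0.25, 9 genes lay between 0.25 and 0.333, 5 between 0.333 and 0.4, 25 between 0.4 and 0.45, and 22 above that. On the TMM scale of edgeR, the members' median log2 fold change was -1.52 and that of the abundant genes -0.27.

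**Figure D1:**
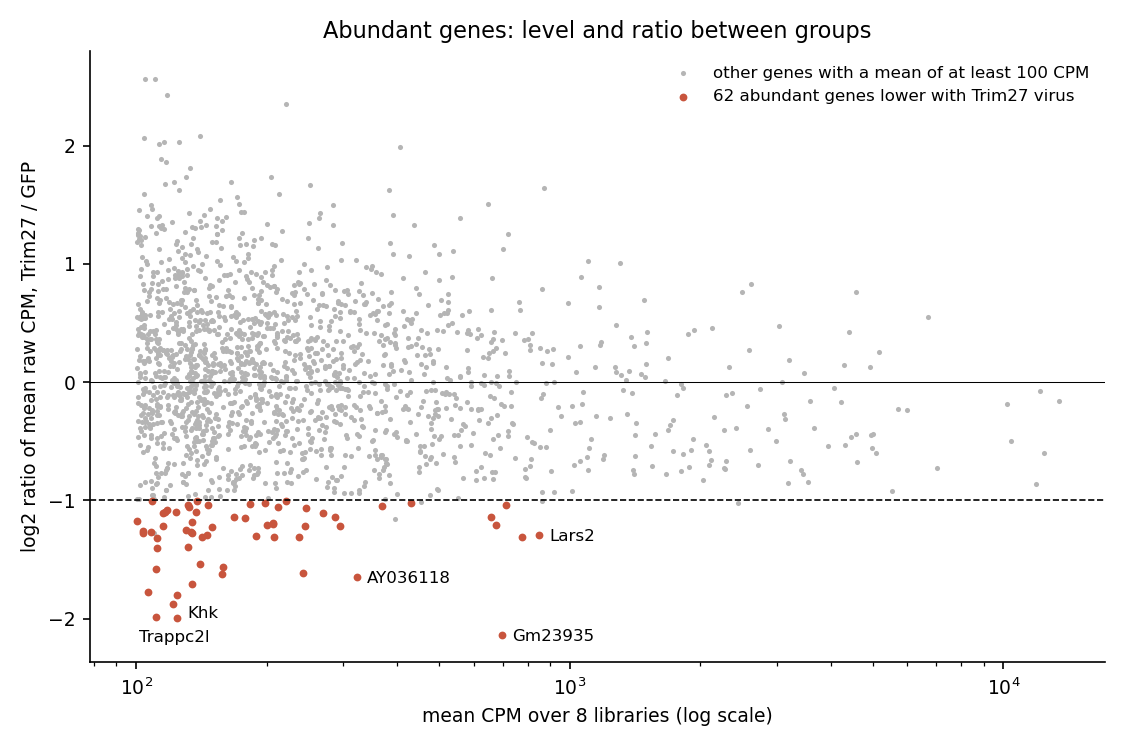
Mean raw CPM over 8 libraries (x axis, log scale) and log2 ratio of the Trim27 to the GFP mean (y axis) for the 1797 genes with a mean of at least 100 CPM, the 62 genes in red and the ratio threshold as a dashed line. Gm23935 (0.227), Khk (0.251) and Trappc2l (0.252) are the 3 lowest points, and most red points lie at low levels.

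Replicates of each gene lay close together compared with the distance between groups. The rule required a ratio of at most 0.5 and no overlap, so such gaps follow from how the genes were chosen. The median coefficient of variation was 3.75% in the GFP group, with the highest value of 10.3% in Gm11808, and 6.13% in the Trim27 group, with the highest value of 17.5% in Bola3. The lowest GFP library exceeded the highest Trim27 library by a median factor of 2.11, and by 1.52 in Bola3, the narrowest gap. Lower groups without overlap were common among abundant genes, 686 of 1797 (38.2%), so it is the ratio of 0.5 that made the set small. The opposite pattern, a ratio of at least 2 without overlap, was met by 134 of the 1797 (7.46%).

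Near the ratio threshold, Siva1 (0.492), Psmg1 (0.498), Ssbp1 (0.498) and Bscl2 (0.498) were the last genes inside. Mettl16 (0.503), Myg1 (0.505), Sars2 (0.505) and Aimp1 (0.507) were the first outside. At the abundance threshold, Elp6 (mean of 100.5 CPM) and Dnlz (103.7 CPM) lay just inside, and Lyl1 (99.96 CPM) and 2410004N09Rik (99.36 CPM) just outside. A mean under 200 CPM was found in 40 members (64.5%, against 51.3% of the abundant genes), and 6 reached 500 CPM.

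**Figure D2:**
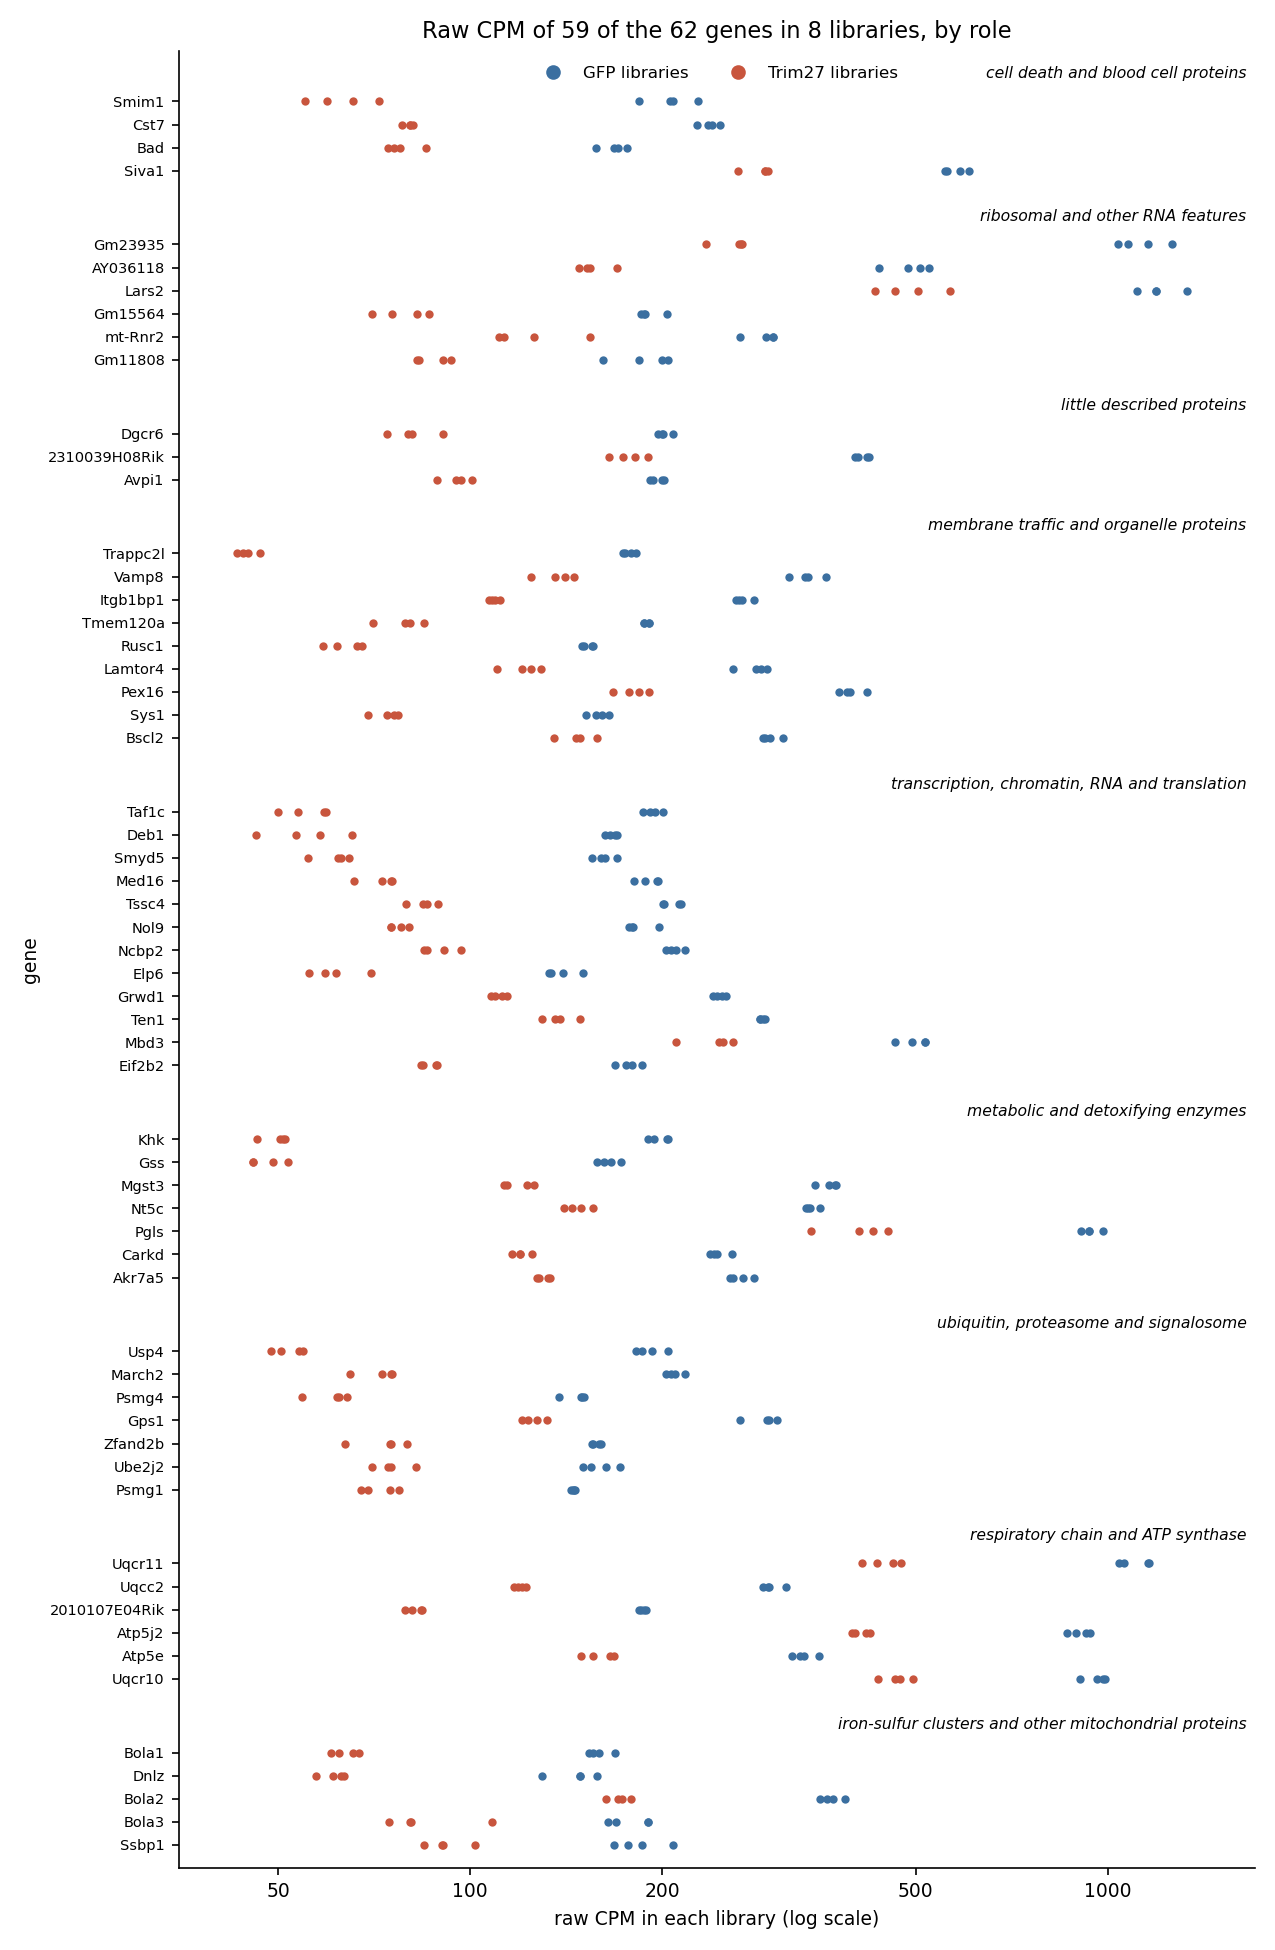
Raw CPM (x axis, log scale) of 59 of the 62 genes (y axis, grouped by role) in the 4 GFP libraries (blue points) and the 4 Trim27 libraries (red points). In every gene shown the 2 colors are separate, as the rule requires, and the gap is narrowest in Bola3.

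Ribosomal and other RNA features made up 6 of the members, and the lowest ratio of the whole set was found among them. The 6 include the protein-coding gene Lars2, placed here although it shares only 0.078% of its runs of 50 bases with another of them. Gm23935 is annotated as a microRNA gene of 57 bases at chr16:11144125-11144181 on the plus strand of GRCm38. Whether its reads come from a microRNA or from another RNA with these letters was not tested. Its sequence is shown because it had the lowest ratio and because 2 other annotated genes, Gm24245 and Gm24270, hold exactly the same letters.
Gm23935: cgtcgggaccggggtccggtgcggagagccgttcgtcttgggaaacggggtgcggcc
The sequence, from GENCODE M21, is 73.7% G and C. Reads that lie wholly within it cannot be assigned to 1 of the 3 genes by sequence alone. How reads were divided between the 3 genes is not stated in the sources used here. Gm23935 was counted at 1261, 1039, 1157 and 1076 CPM with GFP and at 234, 266, 265 and 267 CPM with Trim27. The lowest GFP library was 3.89 times the highest Trim27 library. The copies, looked up after the values of Gm23935 were seen, were counted far lower. Gm24270 ranged from 47.2 to 78.4 CPM with GFP and from 4.53 to 10.85 CPM with Trim27, and Gm24245 had 2.78 ± 0.972 and 0.401 ± 0.139 CPM (SD, n = 4 each).

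AY036118, annotated as a long noncoding RNA, had the second lowest ratio of the 6 RNA features. Its levels were 525, 438, 508 and 486 CPM with GFP and 148, 154, 170 and 153 CPM with Trim27, a ratio of 0.319. All of its 50-base runs (100%) also lie in CT010467.1, a transcript annotated as ribosomal RNA, and on the opposite strand in Gm42418, so its counts cannot be told apart from these. Lars2 encodes the mitochondrial leucyl-tRNA synthetase. It was counted at 1191, 1192, 1111 and 1330 CPM with GFP and at 464, 504, 431 and 566 CPM with Trim27, without overlap. The antisense-annotated gene Gm15564, with which Lars2 shares 3 of 3845 runs of 50 bases, fell in the set too, with a mean of 191 CPM under GFP and 78.6 CPM under Trim27. The ratios of Lars2 (0.407) and Gm15564 (0.412) were close to each other. The cytosolic leucyl-tRNA synthetase gene Lars, chosen for comparison after these values were seen, had 67.2 ± 6.9 and 83.7 ± 4.27 CPM (SD, n = 4 each) and did not pass edgeR's test (log2 fold change 0.01, adjusted p = 0.87).

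The mitochondrial 16S ribosomal RNA gene mt-Rnr2 was counted at 291, 298, 265 and 299 CPM with GFP and at 154, 111, 113 and 126 CPM with Trim27. Replicate 1 was the highest Trim27 library of this gene. The 12S gene mt-Rnr1, the other mitochondrial ribosomal RNA, had 38.4 ± 3.72 CPM with GFP and 29.6 ± 4.01 CPM with Trim27 (SD, n = 4 each), and it fell by 0.68 on the log2 scale of edgeR (adjusted p = 2.3e-07). Gm11808 was counted at 184, 204, 162 and 200 CPM with GFP and at 82.7, 93.3, 90.7 and 83.1 CPM with Trim27. Of its 50-base runs, 94.5% also occur in other genes. How reads were divided between them is not stated, so its values are uncertain.

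**Figure D3:**
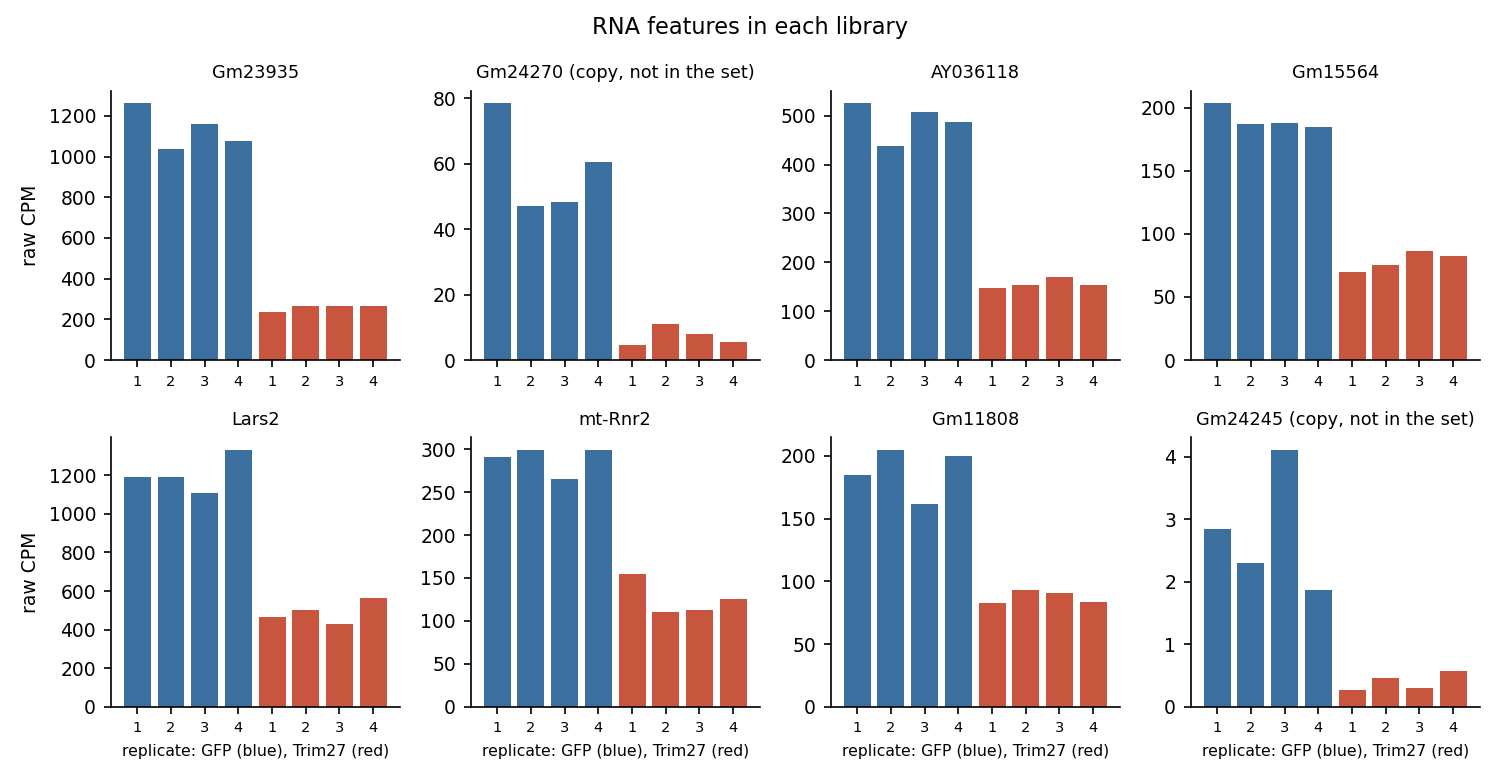
Raw CPM (y axis, from 0, a separate scale for each panel) of 6 RNA features of the set and of 2 copies of Gm23935 in each library (x axis, 1 bar for each of replicates 1 to 4 of GFP in blue and of Trim27 in red). In all 8 panels every red bar is below every blue bar, which the rule requires of the 6 features of the set. The copies reach only 58.6 CPM (Gm24270) and 2.78 CPM (Gm24245) on average in the GFP group.

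The mitochondrially encoded genes were fixed as a list of 15, of which 13 were tested and mt-Rnr2 was the only member of the set. The other 12 gave 5 lower and 2 higher calls and 5 that did not pass, with a median log2 fold change of -0.29. Over all genes tested, edgeR called 38% lower and 47.5% higher, 85.5% in all. The protein-coding transcript mt-Cytb, encoding cytochrome b of complex III, rose by 0.31 (adjusted p = 2.8e-06), and mt-Nd5, a complex I subunit, fell by 0.82 on the same scale (adjusted p = 4e-12). With library sizes alone as the scale, the 12 genes gave 3 lower and 3 higher calls, and with the length trend removed, 2 lower and 4 higher.

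Small nuclear-encoded subunits of respiratory complexes III and V were among the members, and the 2 of complex III held the highest levels per kilobase of transcript among the protein-coding ones. Uqcr11, a small complex III subunit, was counted at 1158, 1042, 1161 and 1060 CPM with GFP and at 411, 461, 474 and 435 CPM with Trim27, a ratio of 0.403. Uqcr10, another small subunit of complex III, had 984, 905, 991 and 963 CPM with GFP and 436, 464, 472 and 496 CPM with Trim27, a ratio of 0.486. The lowest GFP library was 2.2 times the highest Trim27 library in Uqcr11 and 1.83 times in Uqcr10. The assembly factor of the same complex, Uqcc2, had 297 ± 10.7 CPM with GFP and 120 ± 2.3 CPM with Trim27 (SD, n = 4 each).

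In the ATP synthase, Atp5j2, a subunit of the membrane-embedded part, was counted at 924, 863, 892 and 937 CPM with GFP and at 402, 424, 418 and 397 CPM with Trim27. Atp5e, the epsilon subunit of the catalytic part, had 353, 319, 334 and 329 CPM with GFP and 166, 156, 168 and 149 CPM with Trim27. The ratios were 0.454 and 0.478. The small associated protein 2010107E04Rik (now Atp5mpl) had 186 ± 2.05 and 82.1 ± 2.37 CPM (SD, n = 4 each), a ratio of 0.44. Per kilobase of principal transcript, the scale on which genes can be compared, GFP levels were 2484 CPM per kb in Uqcr11, 2214 in Uqcr10, 947 in Atp5j2, 793 in Atp5e, 594 in Uqcc2 and 305 in 2010107E04Rik.

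The list fixed for complexes III to V and cytochrome c held 37 genes, 4 of them in the set (Uqcr10, Uqcr11, Atp5e and Atp5j2). Of the other 33, edgeR called 29 lower and 2 higher, and 2 did not pass, with a median log2 fold change of -0.73 (38% of all genes tested were lower). In complex III with cytochrome c all 8 others fell, with a median of -0.51. In complex IV, which has no member in the set, all 11 fell, with a median of -0.88. Cox5a, a nuclear-encoded complex IV subunit, fell by 1.15 (SE 0.05, adjusted p = 2.4e-19) from 434 ± 7.45 to 241 ± 8.55 CPM. Cox5b fell by 1.04 (SE 0.04, adjusted p = 5e-19) from 986 ± 15.1 to 592 ± 5.74 CPM (SD, n = 4 each).

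Complex V was mixed: of 14 others, 10 fell, 2 rose and 2 did not pass. Its catalytic subunits rose, Atp5a1 by 0.50 (adjusted p = 2.5e-12) and Atp5b by 0.17 (adjusted p = 0.0004). Of the subunits that fell, Atp5o, which links the catalytic head to the stalk, fell by 1.0 (adjusted p = 1.1e-18). The counts depend on the scale, because several subunits had raw ratios close to 1, such as Cyc1 (1.04) and Uqcrfs1 (0.999). With library sizes alone, 23 of the 33 were lower and 5 higher (median -0.43), and with the length trend removed, 25 were lower and 5 higher (median -0.32). The 3 groups of complexes share short transcripts with much of the set, and the part of transcript length in their fall was not tested further.

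**Figure D4:**
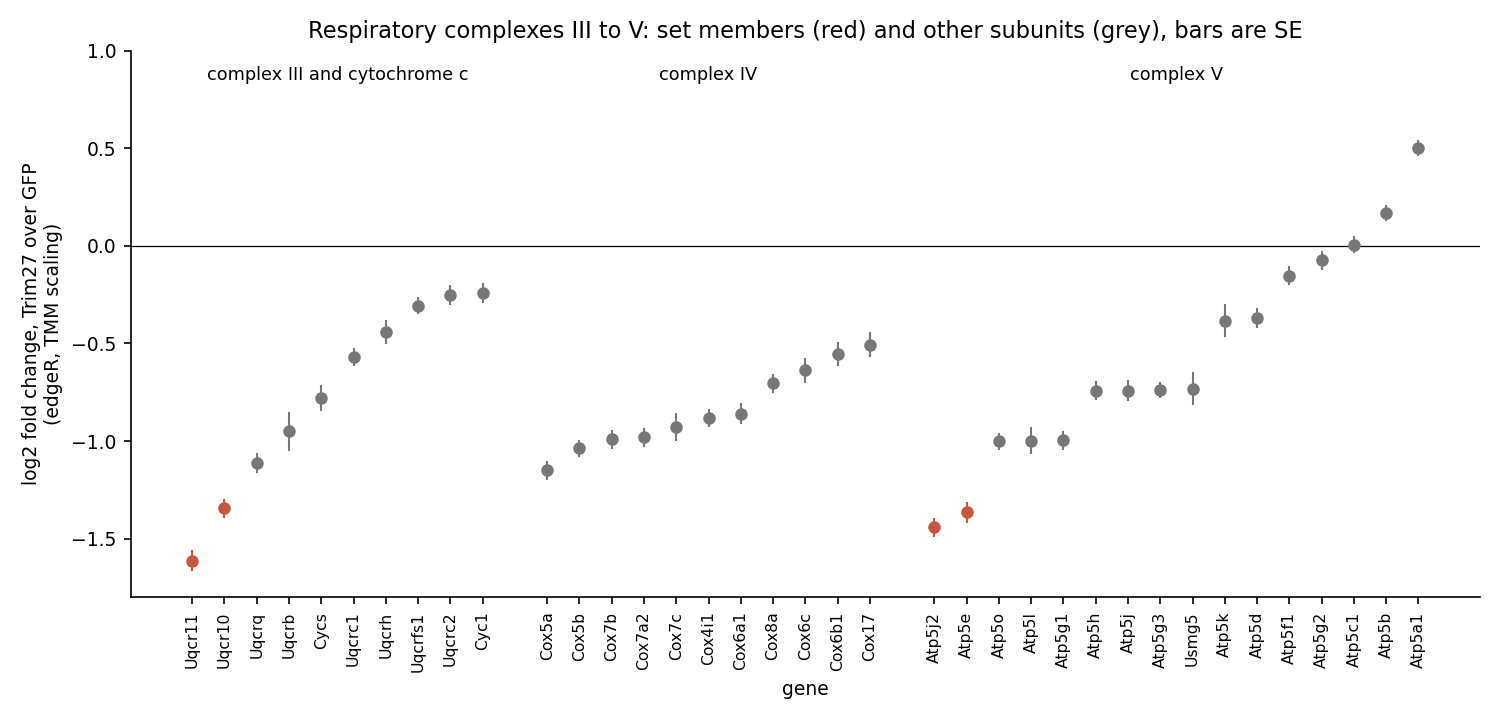
Log2 fold change of Trim27 over GFP (y axis, edgeR with TMM scaling, bars are standard errors) for the 37 listed genes of complexes III to V and cytochrome c (x axis), members of the set in red and the others in grey. The 4 red genes are the lowest of their complexes, all complex IV subunits lie below 0, and Atp5a1 and Atp5b lie above 0.

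Iron-sulfur cluster proteins entered the set with all 3 BolA-family genes. Bola1, which acts in mitochondria, was counted at 156, 154, 169 and 159 CPM with GFP and at 60.5, 65.4, 67 and 62.4 CPM with Trim27. Bola2, the cytosolic partner of glutaredoxin 3, had 371, 354, 387 and 363 CPM with GFP and 164, 173, 179 and 170 CPM with Trim27. Bola3, needed for mitochondrial lipoate-dependent enzymes, had 165, 169, 190 and 190 CPM with GFP and 108, 74.6, 80.9 and 80.6 CPM with Trim27. The groups were apart in all 3 genes, as the rule requires, and the closest approach was Trim27 replicate 1 of Bola3. Exons of other genes overlap 349 of the 1266 bases of Bola2, namely those of Slx1b on the other strand. Whether counting used strand is not given in the sources used here, so reads from that part cannot be told apart. Slx1b was counted at 1.93 CPM with GFP and 10.9 CPM with Trim27.

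Among 21 other genes of cluster assembly and transfer, a list drawn up after the members were known, 13 fell, 5 rose and 3 did not pass in edgeR (median -0.56). Glrx5, the mitochondrial glutaredoxin, fell by 1.07 (adjusted p = 7.5e-18), and Fam96b, of the cytosolic targeting complex, fell by 1.56 (adjusted p = 2.9e-19). Genes that rose included Ciapin1, an early cytosolic assembly factor, by 2.0 (adjusted p = 1.2e-19), the mitochondrial chaperone Hspa9 by 0.73 (adjusted p = 3.4e-14) and the cysteine desulfurase Nfs1 by 0.57 (adjusted p = 5.2e-09). Glutaredoxin 3 (Glrx3), the partner of Bola2, rose by 0.34 (adjusted p = 2.1e-06), from 129 ± 7.32 to 202 ± 13.2 CPM (SD, n = 4 each), while Bola2 was lower. With library sizes alone, 11 of the 21 were lower and 8 higher. The set held 2 further mitochondrial proteins. Dnlz, a zinc-finger protein that keeps mitochondrial Hsp70 soluble, had a ratio of 0.418, and Ssbp1, which binds single-stranded mitochondrial DNA, had 0.498. Of 20 tested genes of mitochondrial protein import, a fixed list with no member in the set, 17 fell and 1 rose, against 38% lower and 47.5% higher among all genes tested. With library sizes alone 11 were lower and 3 higher.

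Among metabolic enzymes, Khk had the second lowest ratio of all 62 genes. Khk encodes ketohexokinase, which phosphorylates fructose, and was counted at 204, 190, 195 and 204 CPM with GFP and at 46.4, 50.4, 51.2 and 50.9 CPM with Trim27, a ratio of 0.251. Gss, the enzyme of the last step of glutathione synthesis, had 172, 158, 167 and 162 CPM with GFP and 45.7, 51.8, 45.7 and 49.1 CPM with Trim27, a ratio of 0.291. Mgst3, a membrane-bound glutathione transferase and peroxidase, had 374, 348, 374 and 365 CPM with GFP and 113, 114, 123 and 126 CPM with Trim27, a ratio of 0.326. In each of these 3 genes the lowest GFP library was at least 2.76 times the highest Trim27 library. Gss overlaps Acss2 on the other strand, and Acss2 was also lower, with 81.5 ± 4.31 and 36.7 ± 2.48 CPM (SD, n = 4 each).

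Pgls, the lactonase of the pentose phosphate pathway, was the most abundant of the 7 enzymes per kilobase of transcript (1053 CPM per kb with GFP). Its levels were 984, 909, 934 and 936 CPM with GFP and 343, 452, 428 and 408 CPM with Trim27, with replicate 1 lowest of the Trim27 libraries. The nucleotidase Nt5c had a ratio of 0.431. Carkd (now Naxd), which repairs damaged NADH and NADPH, had 0.491, and the aldehyde reductase Akr7a5 had 0.492. Other redox genes changed in both directions. Of 23 other redox and glutathione enzymes fixed as a list, 15 fell, 6 rose and 2 did not pass (median -0.46), beside 38% lower and 47.5% higher among all genes tested. On library sizes alone, 11 of the 23 were lower and 10 higher. Gclc, the catalytic subunit for the first step of glutathione synthesis, rose by 3.18 (adjusted p = 4.9e-17), from 3.23 ± 1.17 to 36.1 ± 3.69 CPM, and Chac1, which degrades glutathione, fell by 2.95 (adjusted p = 2.8e-21), from 53 ± 1.24 to 8.45 ± 0.455 CPM (SD, n = 4 each). Both come from a list of 8 synthesis and turnover genes drawn up after the members were known, in which 2 of 6 tested others fell and 3 rose.

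Of 10 membrane traffic and organelle genes, Trappc2l had by far the lowest ratio. Its product belongs to the TRAPP tethering complexes of the secretory pathway. It was counted at 175, 174, 179 and 182 CPM with GFP and at 43.2, 46.8, 44 and 44.9 CPM with Trim27, a ratio of 0.252, and the lowest GFP library was 3.71 times the highest Trim27 library. Other TRAPP genes, a list drawn up after the members were known, gave 7 lower and 3 higher calls of 11 (median -0.26), but 2 lower and 3 higher with library sizes alone. Among all genes tested, 38% were lower and 47.5% higher. Trappc5 fell by 1.24 (adjusted p = 1.6e-18) and Trappc6b rose by 1.02 (adjusted p = 1.3e-11).

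Vamp8, a SNARE of late endosomes and secretory granules, had 362, 336, 316 and 338 CPM with GFP and 125, 136, 146 and 141 CPM with Trim27. Pex16, needed to insert peroxisomal membrane proteins, had 420, 390, 394 and 379 CPM with GFP and 168, 177, 191 and 184 CPM with Trim27. Their ratios were 0.404 and 0.455. Lamtor4, a subunit of the Ragulator complex that anchors nutrient signalling at lysosomes, had a ratio of 0.434. Of the 4 other Ragulator genes, 3 fell (Lamtor1 by 1.16, Lamtor2 by 0.76 and Lamtor5 by 0.48) and Lamtor3 rose by 0.51. Among all genes tested, 38% were lower and 47.5% higher. Ratios were 0.407 in Itgb1bp1, which binds the integrin beta1 tail, 0.416 in Tmem120a, 0.416 in the adaptor gene Rusc1, 0.466 in the Golgi protein gene Sys1 and 0.498 in Bscl2. Bscl2 encodes seipin, which shapes lipid droplets. Its exons overlap those of Gng3 on the other strand, which had no counts in any library.

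Genes of ubiquitin and proteasome function contributed 7 members. Usp4, a deubiquitinating enzyme, was counted at 193, 205, 182 and 186 CPM with GFP and at 54, 54.8, 50.5 and 48.8 CPM with Trim27, a ratio of 0.272. March2 (now Marchf2), a membrane-bound ubiquitin ligase, had 203, 218, 206 and 210 CPM with GFP and 64.7, 72.9, 75.5 and 75.3 CPM with Trim27, a ratio of 0.345. In both the groups were apart, as the rule requires. The proteasome assembly chaperones Psmg4 and Psmg1 had ratios of 0.413 and 0.498, and all 3 others of that group, Psmg2, Psmg3 and Pomp, fell, by 0.37, 0.58 and 0.69. The raw ratio of Psmg2 was 0.957, so its call rests on the TMM scale. None of the 32 tested proteasome subunits was in the set: 21 fell, 5 rose and 6 did not pass (median -0.37), where 38% of all genes tested were lower and 47.5% higher. On library sizes alone, 16 of the 32 were lower and 13 higher.

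Gps1, the first subunit of the COP9 signalosome, which removes the ubiquitin-like protein Nedd8 from ligases, had 294, 303, 266 and 292 CPM with GFP and 121, 127, 123 and 132 CPM with Trim27. Of 8 other subunits, a list drawn up after the members were known, 5 rose, 2 fell and 1 did not pass, with a median of 0.41. Among all genes tested, 47.5% were higher and 38% lower. With library sizes alone 7 of the 8 rose and 1 fell. Cops4 rose by 0.80 (adjusted p = 8.3e-13) and Cops5, the catalytic subunit, by 0.35 (adjusted p = 4.4e-06). A near copy of Gps1, Gm9816, holds 63.2% of its 50-base runs and was counted at 75.7 ± 2.91 and 33.8 ± 3.4 CPM (SD, n = 4 each), so both values are uncertain. Zfand2b, which associates with the proteasome, had a ratio of 0.465, and Ube2j2, a ubiquitin-conjugating enzyme of the endoplasmic reticulum, had 0.472.

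The largest group, 12 genes, acts in transcription, chromatin, RNA handling or translation. Taf1c is a subunit of SL1, the factor that brings RNA polymerase I to ribosomal DNA, and had 191, 187, 201 and 195 CPM with GFP and 49.9, 53.7, 59.5 and 58.9 CPM with Trim27, a ratio of 0.287. The other SL1 subunits did not fall: Taf1b rose from 0.38 to 6.24 CPM (adjusted p = 7e-09), Taf1d rose by 0.37 (adjusted p = 0.0011), Tbp did not pass (log2 fold change 0.06, adjusted p = 0.74) and Taf1a had no counts. Taf1c overlaps Dnaaf1 on the other strand, which had no counts either. Mbd3, a subunit of the NuRD repressor complex, had 518, 464, 516 and 493 CPM with GFP and 211, 246, 258 and 249 CPM with Trim27. Replicate 1 was the lowest Trim27 library of Mbd3.

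Med16 encodes a subunit of Mediator, which links activators to RNA polymerase II, and had 197, 181, 197 and 188 CPM with GFP and 65.8, 72.9, 75.3 and 75.2 CPM with Trim27. Smyd5, a SET-domain methyltransferase, had a ratio of 0.378, and Deb1 (now Ss18l2) had 0.334. Genes of RNA handling were Tssc4 (0.408), the cap-binding protein gene Ncbp2 (0.428), the polynucleotide kinase gene Nol9 of ribosomal RNA processing (0.42) and Grwd1 (0.45), a histone chaperone also linked to ribosome assembly. Elp6, a subunit of the Elongator complex that modifies tRNA, had a ratio of 0.443. Of the 5 other Elongator genes, 4 fell and Elp4 rose, beside 38% lower and 47.5% higher among all genes tested. Elp4 went from a single counted library with GFP (0.191 CPM) to 8.23 ± 2.14 CPM with Trim27 (SD, n = 4).

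Eif2b2 encodes a subunit of the exchange factor of translation initiation eIF2 and had a ratio of 0.486. Of its 4 partners, Eif2b1, Eif2b3 and Eif2b5 rose (by 0.14, 1.68 and 0.37) and Eif2b4 fell by 0.59. Ten1, of the CST complex at telomeres, had 285, 288, 285 and 291 CPM with GFP and 130, 136, 149 and 138 CPM with Trim27. Its partner Ctc1 did not pass (log2 fold change 0.12, adjusted p = 0.18), and Obfc1 rose from 0.302 to 1.84 CPM (adjusted p = 0.00015). In 5 of the 10 partner lists (signalosome, eIF2B, SL1, CST and glutathione synthesis) higher calls outnumbered lower ones, and in the other 5 lower calls outnumbered higher ones, beside 38% lower and 47.5% higher among all genes tested. With library sizes alone, TRAPP joined the first 5, and with the length trend removed, eIF2B, CST and glutathione synthesis had as many lower as higher calls.

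The remaining members relate to cell death and blood cells or have little described roles. Siva1, a proapoptotic protein, was counted at 586, 556, 606 and 560 CPM with GFP and at 263, 290, 290 and 293 CPM with Trim27. Bad, which promotes cell death by binding Bcl-xL, had 168 ± 7.89 and 78.4 ± 4.83 CPM (SD, n = 4 each), a ratio of 0.466. Bad overlaps Gpr137 on the other strand over 517 of its 1452 bases, and reads from that part cannot be told apart without strand. The counts of Gpr137 were also lower, 47.6 ± 1.33 and 10.3 ± 1.95 CPM. Cst7, which encodes cystatin F, an inhibitor of cysteine cathepsins in immune cells, had 227, 246, 236 and 240 CPM with GFP and 78.1, 80.4, 80.4 and 81.3 CPM with Trim27. Its Trim27 values were tightly grouped, with a ratio of 0.337. Markers of T and NK cells, which also express Cst7, summed to 41.9 to 51.8 CPM with GFP and 123 to 132 CPM with Trim27. Of the 8 listed, 2 were tested and they changed in opposite directions. Gzmb (granzyme B) rose from between 15.7 and 24.8 to between 120 and 129 CPM, and Lck fell from between 24.9 and 27 to between 1.83 and 3.22 CPM. Their part in the level of Cst7 was not tested.

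Smim1, the small red cell membrane protein that carries the Vel blood group, had 227, 184, 208 and 206 CPM with GFP and 55.1, 65.4, 72.1 and 59.6 CPM with Trim27, a ratio of 0.305. Of 10 listed erythroid markers, 7 are in the table, of which 5 fell and 2 rose in edgeR, beside 38% lower and 47.5% higher among all genes tested. The 7 markers summed to 1370 to 1440 CPM with GFP and 967 to 1150 CPM with Trim27. Klf1, an erythroid transcription factor, had 795 to 839 CPM with GFP and 497 to 581 CPM with Trim27, while Alas2, of heme synthesis, rose from between 4.79 and 11.1 to between 36.6 and 44.1 CPM. Raw CPM of Epor and Hba-a2 overlapped between the groups, and the part of these markers in the level of Smim1 was not tested. Its transcript overlaps Lrrc47 on the other strand, which was counted at 6.23 CPM with GFP and 12.5 CPM with Trim27. The little described genes included Dgcr6 (ratio 0.404), 2310039H08Rik (0.431) and Avpi1 (0.485). Of these, 2310039H08Rik was the most abundant per kilobase of transcript, with 541 CPM per kb under GFP.

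Features that the rule did not use were compared with those of the abundant genes as a description. Transcript length, from the principal transcript of GENCODE M21, had a median of 1312 bases in the 62 genes and 1858 bases in the 1797. The shortest was Gm23935 (57 bases) and the longest Smim1 (5091 bases). Transcripts under 1000 bases made up 33.9% of the members and 17.5% of the abundant genes, and those of 2000 bases or more 24.2% and 44.5%. The share of abundant genes that belonged to the set fell with length: 9.3% of those under 500 bases were members, 6.27% of those with at least 500 and under 1000, 3.8% of those up to 2000, 2.16% of those up to 4000, and 1.02% of longer ones. All abundant genes followed the same order, since their median log2 ratio of raw CPM was -0.80 in the shortest class and 0.29 in the longest. Long transcripts in the set included Usp4 (3662 bases), Taf1c (3236 bases) and Smim1, and the rule had chosen them for a low ratio. After each library's trend on length was removed on the TMM scale, the members' median log2 fold change was -1.44, against -1.52 before. The median over all genes tested moved the other way, from 0.14 to -0.07, so the members came closer to the other genes. Single members moved in both directions under this correction. Of the short ones, Uqcr10 went from -1.34 to -0.66, Atp5e from -1.37 to -0.67, Uqcr11 from -1.61 to -0.93 and Gm23935 from -2.44 to -1.40. Of the long ones, Smim1 went from -2.01 to -2.72, Usp4 from -2.18 to -2.68 and Ssbp1 from -1.31 to -1.91. All 7 stayed lower with Trim27, but they had been chosen for being lower. The part of transcript length in the levels of the set was not tested.

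**Figure D5:**
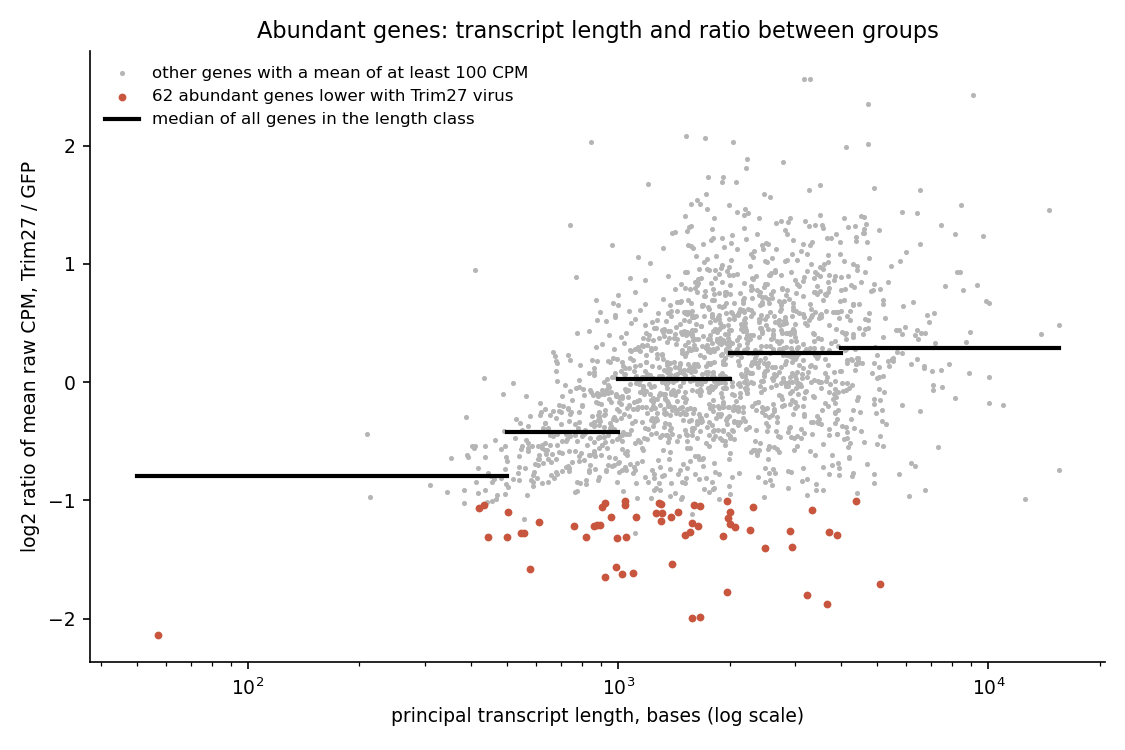
Principal transcript length in bases (x axis, log scale) and log2 ratio of the Trim27 to the GFP mean of raw CPM (y axis) for the 1797 abundant genes, the 62 genes in red, with black lines for the median of all genes in each of 5 length classes. The medians run from -0.80 under 500 bases to 0.29 at 4000 bases and more, and the red points spread over all classes.

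Coding sequences were short as well, with a median of 602 bases in the 58 members with one and 915 bases in the abundant genes. Exons of another gene overlapped the principal transcript in 14 members (22.6%) and in 26.4% of the abundant genes. Of the members, 29 held a run of 50 bases found in another gene, 10 of them over 20% of their runs, and 33 held none. Shared runs were searched for the members only, so no share of the abundant genes stands beside these counts.

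Promoters, taken from RefSeq (GRCm38.p6) as 250 bases before and 50 bases after each start, were at hand for 53 of the 62 genes (69 promoters). Those of Khk and Trappc2l are shown because these protein-coding genes had the lowest ratios, and those of Uqcr11 and Uqcr10 because they were the most abundant protein-coding members per kilobase. Capitals mark matches on either strand to the motif CCAAT, which reads in reverse order and complement where it lies on the other strand, to GGGCGG, and further to CGGAAG and also to CACGTG.
Khk: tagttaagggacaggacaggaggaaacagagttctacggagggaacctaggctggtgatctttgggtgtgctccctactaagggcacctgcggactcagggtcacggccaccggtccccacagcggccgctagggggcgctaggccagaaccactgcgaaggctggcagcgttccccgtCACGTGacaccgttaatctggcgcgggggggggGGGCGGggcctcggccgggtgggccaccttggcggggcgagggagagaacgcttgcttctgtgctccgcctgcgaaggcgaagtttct
Trappc2l: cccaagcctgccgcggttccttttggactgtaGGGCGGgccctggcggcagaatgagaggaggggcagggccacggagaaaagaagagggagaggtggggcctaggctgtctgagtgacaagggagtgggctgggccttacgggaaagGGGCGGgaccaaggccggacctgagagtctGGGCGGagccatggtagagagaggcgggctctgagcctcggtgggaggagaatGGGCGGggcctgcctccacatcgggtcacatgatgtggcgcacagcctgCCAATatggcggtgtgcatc
Uqcr11: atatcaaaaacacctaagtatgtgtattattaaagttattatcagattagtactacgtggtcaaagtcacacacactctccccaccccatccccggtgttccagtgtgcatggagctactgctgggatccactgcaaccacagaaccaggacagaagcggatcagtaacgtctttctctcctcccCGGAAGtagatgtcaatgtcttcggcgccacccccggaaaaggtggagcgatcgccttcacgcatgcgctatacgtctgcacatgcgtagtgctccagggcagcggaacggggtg
Uqcr10: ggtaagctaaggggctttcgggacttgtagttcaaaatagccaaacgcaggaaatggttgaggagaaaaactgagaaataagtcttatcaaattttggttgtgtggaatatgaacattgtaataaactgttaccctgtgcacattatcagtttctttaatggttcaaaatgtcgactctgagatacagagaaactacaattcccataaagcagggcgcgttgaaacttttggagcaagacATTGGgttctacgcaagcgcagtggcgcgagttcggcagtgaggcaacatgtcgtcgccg
These windows are chr5:30921309-30921608 (plus strand) for Khk, chr8:122611376-122611675 (plus strand) for Trappc2l, chr10:80406772-80407071 (minus strand) for Uqcr11 and chr11:4704295-4704594 (minus strand) for Uqcr10. The 4 differ from each other in the motifs they hold: CACGTG occurs in that of Khk alone, CGGAAG in that of Uqcr11 alone, and CCAAT in those of Trappc2l and Uqcr10.

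Over all 69 member promoters, searched on both strands, motif shares were near those of the abundant genes. The share with CCAAT, the letters of the NF-Y box, was 42%, against 40.3% of the 1758 promoters of abundant genes and 37.4% of all 32851 promoters. GGGCGG, the GC box, occurred in 60.9%, 65.9% and 35.7% of them. CGGAAG, the core of many ETS sites, occurred in 34.8%, 41.9% and 16.9%, and it can overlap GGGCGG in its first letters. CACGTG, the E-box bound by Myc and Usf proteins, was found in 10.1%, 13.1% and 7.15%. TATAAA was found in 5.8%, 7.51% and 13.6%, and AGATAA (a site type of GATA factors) in 4.35%, 6.43% and 11.2%. The palindromic NRF1 motif was found in 1.45%, 2.5% and 0.971%. The median G and C content was 59.3%, 60.7% and 52.7%. A match describes letters in the window and not binding.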

How the data were processed

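RNA-seq of 4 GFP and 4 Trim27 samples was analysed from the single deposited table of raw counts per gene symbol. Per the submitters' processing notes, the authors used bcl2fastq, HISAT2 and featureCounts with the genome build NCBIM37; for their versions, the annotation, the strand setting and multimapping reads, nothing is given in the sources used here. Per the labels' protocols, RNA was extracted with the RNeasy kit and libraries were made with Nextera XT. Of the counts between 1 and 10, 64.7% to 72% were even in each library, so counting error may be larger than the counts imply.

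The 62 members and all gene lists were chosen with earlier results of these data known. Raw CPM used the column totals. The contrast between groups was fitted over 11040 genes with edgeR 4.0.16 (R 4.3.3; filterByExpr, TMM, robust glmQLFit, glmQLFTest, Benjamini-Hochberg, threshold 0.05, 2-sided), and limma 3.58.1 and DESeq2 1.42.0 served as alternatives, with other scalings, filters, thresholds and left-out libraries. These p-values measure the spread between the numbered samples, which may be technical. Scripts were tested on simulated data. Named members are the 15 with the lowest ratio, the 15 with the highest GFP mean and up to 4 of each list, plus those around the thresholds; other members appear with their role. From each list with at least 2 members, up to 2 other genes with the smallest p are named (Cox5a and Cox5b); all further genes outside the set, and the lists of partners, were chosen after values were seen. Lists are described by counts and medians with no set test. Lengths and shared 50-base runs come from GENCODE M21, matched by symbol for 32979 genes, and not from the build of the counts. A few members and a related gene are not reported here by name, and counts over the set include them.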

Additional observations from a re-analysis of the deposited data

Results flagged for a closer look

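In 65 genes, the 62 and 3 named beside them, both groups of 4 libraries were searched for a library far from the other 3, by Dixon's ratio of gap to range above 0.829. Of 130 groups, 5 met this, and chance alone flags about 1 in 20 groups. Gm23935 (234 CPM in Trim27 replicate 1, the others 265 to 267) and Siva1 (263 CPM in Trim27 replicate 1, the others 290 to 293) were lowest in the same library. Psmg4 was lowest in GFP replicate 4 (138 CPM, the others 150 to 151). Nol9 (198 CPM, the others 178 to 180) and Gm15564 (204 CPM, the others 185 to 188) were highest in GFP replicate 1. All 5 genes are members of the set, so the rule itself required their groups to be apart.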

How the results depend on the processing

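The number of genes in the set depends on its thresholds and on the scale. In place of 62, the rule gave 172 genes with TMM-scaled CPM, and 155 each with DESeq2 size factors and with totals that leave out the ribosomal protein and Nduf genes, and each of these held all 62. A minimum of 50 CPM gave 135, one of 200 CPM gave 22, a ratio of 0.4 gave 15 and a ratio of 0.6 gave 147. Leaving out a single library gave 56 to 69 genes, and leaving out both replicates 1, chosen after seeing the data, gave 60, of which 55 were shared. The median log2 ratio of -1.22 became -1.52 with TMM, -1.48 with DESeq2 size factors, -1.39 with the reduced totals and -1.44 with TMM and the length trend removed, and it lay between -1.24 and -1.21 without single libraries.

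Over all genes tested, edgeR called 4193 lower and 5249 higher. With library sizes alone these were 3106 and 6277, since the median log2 fold change moved from 0.14 to 0.44. A minimum of 10 CPM left 7678 genes and 3453 higher calls. Of 429 listed genes outside the set, 250 were lower and 121 higher, and with library sizes alone 166 and 192. Single libraries left out gave 4118 to 4334 lower and 5100 to 5351 higher calls over all genes, and 243 to 260 and 112 to 121 among the listed genes.

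Samples with the same number did not deviate together (correlations of -0.057 to 0.026). This cannot exclude that they share a litter or infection, since a shared origin need not leave a shared deviation. With the replicate number as a block, 4027 genes were lower and 5133 higher, and 244 and 116 of the listed genes. Among single genes, calls were recomputed only for Cox5a, Cox5b and Trim27. None of these reversed, and Trim27 lost its edgeR call with the length trend removed (log2 fold change 0.12, adjusted p = 0.053). Named members were recomputed without a call. None of them reversed either, but the rule had chosen them for a low ratio, which made a reversal unlikely. Genes outside the set with levels under 10 CPM rest on few counts.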
